A study of Homo sapiens with 3 samples.

Results

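The outer end of chromosome 8's long arm held 3348 of 153378 Spindlin1 peaks and 3127 of 177557 C11orf84 peaks called on chromosomes 1 to 22 and X, 6475 of 330935 in all. Its peaks are those of either list with a summit at position 140000000 or beyond in the human genome build hg19, and the last of them ended at 146301392, so that the stretch measured 6.30 Mb. It was chosen because earlier results from the same lists had shown many wide peaks and a moderately raised background there. Width, background and the measures tied to them are therefore given as descriptions, with no test.

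The lists come from chromatin immunoprecipitation and sequencing (ChIP-seq) in U2OS, a human osteosarcoma cell line. Untreated cells were fixed with formaldehyde (1%, 10 min), and a single library was made from each of 3 samples: a Spindlin1 pull-down, a C11orf84 pull-down and an Input taken with no antibody, of which no file was used here. The 3 groups share the cell line and the fixation and differ in the antibody. There are no replicates, so differences between the lists have no replicate check, and intervals given below are exact 95% intervals of counting error that take each peak as independent, which neighbouring peaks are not.

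Spindlin1 is a nuclear protein whose Tudor-like domains recognise methylated residues on the tail of histone H3, among them the form of trimethylated lysine that marks active promoters, and C11orf84, also known as SPINDOC, is a protein that binds Spindlin1 directly. A narrow peak is typical of a factor held at a short DNA element, whereas a wide interval reflects signal that stays above background over several nucleosomes. The distal long arm of chromosome 8 is rich in genes. In the RefSeq gene order of the human assembly GRCh38, 101 of the 715 protein-coding genes of chromosome 8 lie from PTK2, a focal adhesion kinase, to the tip, among them PLEC (the cytoskeletal linker plectin), HSF1 (a heat shock transcription factor), RECQL4 (a DNA helicase), 9 zinc finger genes with a ZNF symbol and 6 genes with an LY6 symbol, which encode small surface proteins. That table is of another build than the peaks, so regions are named here by hg19 position and no gene was assigned to a peak.

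Both proteins occupied a large part of this arm end. Spindlin1 peaks covered 1888 kb (29.97% of the stretch) and C11orf84 peaks 2051 kb (32.5%). The bases common to both lists came to 1715 kb, which is 90.8% of the Spindlin1 and 83.6% of the C11orf84 bases in peaks. The median Spindlin1 peak was 332.5 bp wide, with quartiles at 214 and 638 bp, and the median C11orf84 peak 368 bp, with quartiles at 229 and 737.5 bp, against 228 and 247 bp over all peaks elsewhere. The width distribution was skewed. Peaks under 300 bp made up 45.9% of the Spindlin1 peaks but 17.7% of their bases, and for C11orf84 these shares were 41.5% and 14.1%.

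Peaks of at least 2 kb, called wide here, numbered 124 for Spindlin1 (3.70%, 3.09 to 4.40), against 0.176% in the whole Spindlin1 list. For C11orf84 they numbered 181 (5.79%, 5.00 to 6.66), against 0.311% in its whole list. They held 19.9% of the Spindlin1 and 28.4% of the C11orf84 bases in peaks. Of the 100 widest peaks of each whole list, 57 Spindlin1 and 46 C11orf84 peaks lay in this arm end, which held 2.18% and 1.76% of all peaks. Since width was among the values behind the choice of the stretch, nothing is read from these counts beyond their size.

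Peaks of this arm end were also deep, as measured by the number of sequenced fragments over the summit, recovered from the authors' fold enrichment and p-value. The median Spindlin1 summit lay under 17 fragments and the median C11orf84 summit under 19, where all other peaks had 11 and 12. At least 20 fragments were reached by 1127 Spindlin1 peaks (33.7%, against 4.43% in the whole list) and 1510 C11orf84 peaks (48.3%, against 6.13%). In the rest of chromosome 8, 12.8% of Spindlin1 and 15.3% of C11orf84 peaks reached that depth. The background under each summit is given as a multiple of the lowest background of the list, called the floor, and its median here was 1.44 under Spindlin1 peaks and 1.47 under C11orf84 peaks. At least 2 times the floor was found under 730 Spindlin1 peaks (21.8%, against 9.07% in the whole list) and 723 C11orf84 peaks (23.1%, against 9.19%). In the rest of chromosome 8 these shares were similar, at 23.9% for Spindlin1 and 22.6% for C11orf84. They were lower in the outermost 6.30 Mb of the long arms of chromosomes 9, 17 and 20. There they were 5.36%, 6.88% and 7.69% for Spindlin1 and 5.22%, 8.43% and 8.28% for C11orf84. Depth was high where background was lowest, too. Among the 497 Spindlin1 peaks that stood at the floor, 21.9% had 20 fragments or more, against 0.670% of the floor peaks elsewhere, and among the 460 C11orf84 floor peaks 37.0% did, against 1.21%.

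Within the stretch, peaks were unevenly spread, and both proteins followed the same pattern. In windows of 100 kb, the share of bases in Spindlin1 peaks ran from 0 to 71.6% with a median of 27.9%, and that of C11orf84 from 0 to 75.4% with a median of 31.5%. Over the 63 whole windows the shares of both proteins were correlated (Pearson 0.997, Spearman 0.995). Neighbouring windows are not independent, so these are descriptions. The windows include some with 0 peaks of either list, which were not checked for gaps in the hg19 sequence. At least 40% of bases lay in peaks in 24 windows for Spindlin1 and in 26 for C11orf84, while under 5% did in 12 windows for each. The 10 fullest windows held 32.9% of the Spindlin1 and 32.2% of the C11orf84 bases in peaks.

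The fullest window of both lists was that at 144.6 to 144.7 Mb, with 74 Spindlin1 peaks over 71.6% and 60 C11orf84 peaks over 75.4% of its length. The window at 143.6 to 143.7 Mb came second in both lists, with 66.7% and 71.3%. The third was 144.5 to 144.6 Mb for Spindlin1 (65.6%) and 143.5 to 143.6 Mb for C11orf84 (69.3%). These windows held 9 to 13 wide peaks each in the list they lead. A window with many peaks did not always hold many wide ones. The window at 142.5 to 142.6 Mb held 102 Spindlin1 peaks over 44.2% of its bases and 0 wide ones, whereas that at 144.6 to 144.7 Mb held 10 wide ones among its 74.

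**Figure D1:**
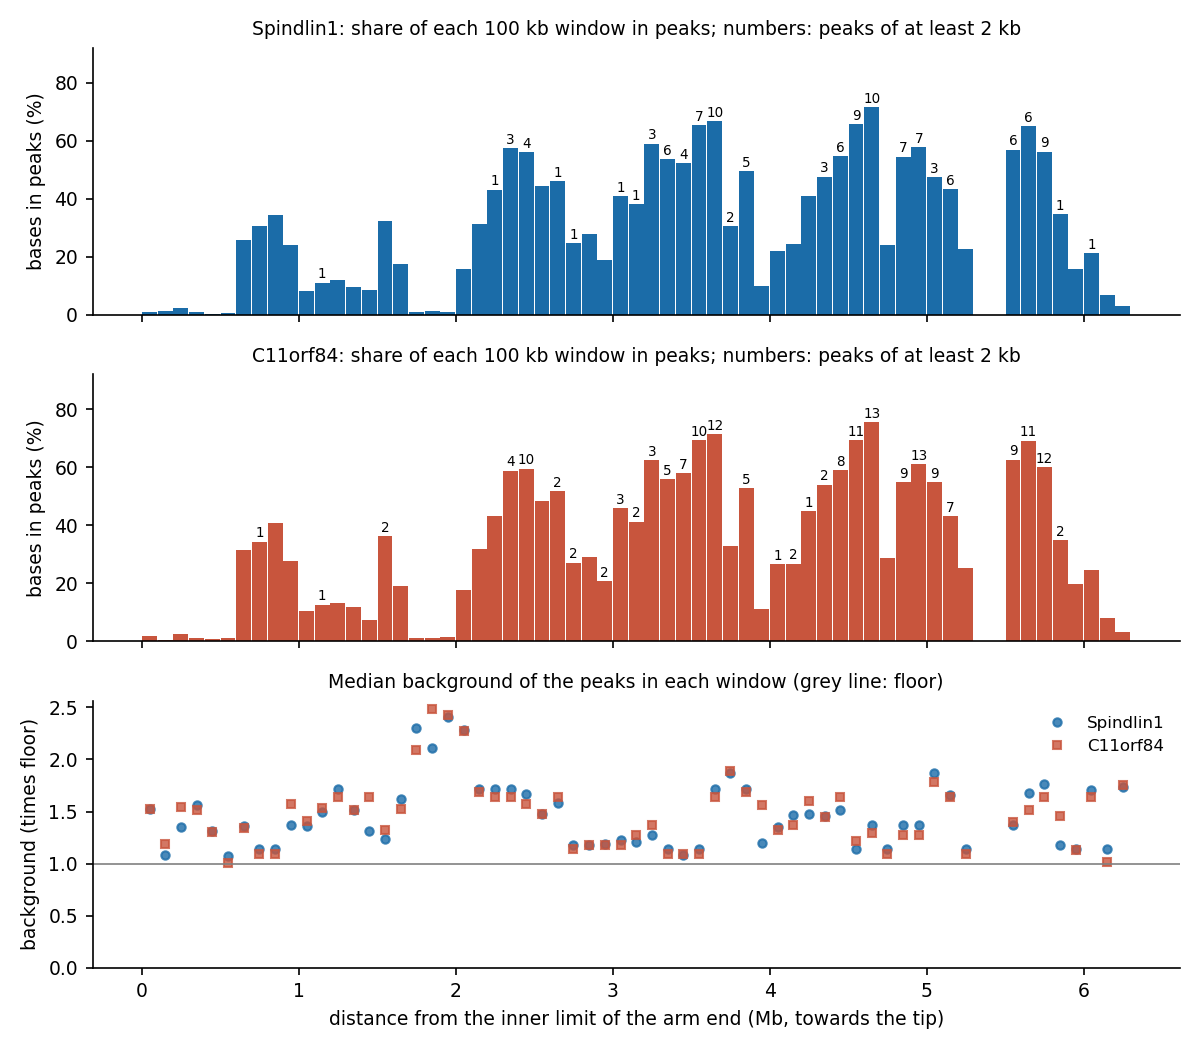
Share of bases in Spindlin1 peaks (top) and C11orf84 peaks (middle) in each 100 kb window of the chromosome 8 long arm end, with the number of peaks of at least 2 kb above each bar, and the median background of the peaks in each window as a multiple of the floor (bottom), by distance from the inner limit in Mb. The bars of both proteins rise and fall at the same windows, up to 71.6% and 75.4%, and background does not follow bar height. The second tallest bar of each protein, at 143.6 to 143.7 Mb, has a median background of 1.71 (Spindlin1) and 1.64 (C11orf84) times the floor.

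Background under the called summits did not follow coverage across the windows of the arm end. It is known only under these summits, and each window counts the same however many peaks it holds. Over the 61 windows with a peak, the Spearman correlation of the share of bases in peaks with the median background was -0.0065 for Spindlin1 and -0.08 for C11orf84. The 3 windows from 141.7 Mb on, where Spindlin1 peaks covered 0.877% to 1.10% of bases, had median backgrounds of 2.11 to 2.41 times the floor from 4 Spindlin1 peaks each. The window at 143.4 to 143.5 Mb, with 52.2% of its bases in Spindlin1 peaks, stood at 1.08 times. Among single peaks, width rose with summit depth (Spearman correlation across peaks of 0.53 for Spindlin1 and 0.60 for C11orf84) and not with background (-0.04 and -0.04). Peaks of 1 library are not independent, and these coefficients are descriptions.

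Some of the long stretches without peaks were nearly the same in both lists, and others were not. The longest ran from 145289975 to 145501740 in the Spindlin1 list (212 kb) and from 145289248 to 145501665 in the C11orf84 list (212 kb), so that the windows at 145.3 to 145.4 and 145.4 to 145.5 Mb held 0 peaks of either. The next emptiest was that at 140.4 to 140.5 Mb for Spindlin1 (1 peak, 0.174% of bases) and that at 140.1 to 140.2 Mb for C11orf84 (2 peaks, 0.381%). Another ran from 142745544 to 142834018 (88.5 kb) for Spindlin1 and from 142745403 to 142834014 (88.6 kb) for C11orf84. A stretch of 56.8 kb without a Spindlin1 peak began at 141902642, and the C11orf84 list had one of 57.0 kb there. The second longest C11orf84 gap (140055237 to 140185082, 130 kb) had no such counterpart, since the Spindlin1 gap there ended at 140085710 after 51.3 kb. The gaps that began at 140429181 for Spindlin1 and at 140429159 for C11orf84 were 78.4 and 57.8 kb long. The gaps of the hg19 sequence itself were not used here, so whether reads could align throughout these stretches is not known. Stretches empty in both lists are therefore no measure of likeness between the proteins. Between neighbouring peaks the median gap was 337 bp for Spindlin1 and 349.5 bp for C11orf84, and 76.4% and 76.5% of gaps were at most 1 kb. Joined across gaps of at most 2 kb, the peaks fell into 458 Spindlin1 and 408 C11orf84 runs, of which 41 and 48 were at least 20 kb long and held 57.6% and 63.2% of the bases in peaks. The longest Spindlin1 run reached 125 kb (142516111 to 142640627, 147 peaks, 51.0% covered), and the longest C11orf84 run 102 kb (142359959 to 142462277, 74 peaks, 76.4% covered).

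The limit at 140 Mb did not mark the rise in peaks. The last Spindlin1 peak before it had a summit depth of 12 fragments (139971612 to 139971783, fold 5.64), and the first past it had 12 fragments as well (140014271 to 140014543, fold 5.32). For C11orf84 the last peak before it had 18 fragments (139954818 to 139955034, fold 7.05) and the first past it 12 (140014061 to 140014564, fold 5.04). The 1 Mb before the limit held 131 Spindlin1 and 136 C11orf84 peaks. Past the limit, the first 500 kb held 24 and 27, which was sparser, and the next 500 kb 327 and 326. In the latter the median width was 261 and 299 bp, against 205 and 209 bp in the first. The rise lay at 140.6 Mb, where the share of bases in Spindlin1 peaks went from 0.599% in the window before to 25.7% in the window after.

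The wide peaks lay mostly past the first 2 Mb. The first Mb held 0 wide Spindlin1 peaks and 1 wide C11orf84 peak and the next Mb 1 and 3, whereas there were 10 and 20 between 142000001 and 143000000, 39 and 47 at 143 to 144 Mb, 42 and 60 at 144 to 145 Mb, and 31 and 50 at 145 to 146 Mb. Past 146 Mb the numbers were 1 and 0. Median background in these 7 stretches lay between 1.18 and 1.67 times the floor under Spindlin1 peaks and between 1.26 and 1.63 times under C11orf84 peaks, in no order with the number of wide peaks.

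Farther in along chromosome 8, background and the number of wide peaks were as follows. In the 5 Mb bins from 115 to 140 Mb the median Spindlin1 background was 2.10, 1.53, 1.66, 1.55 and 1.22 times the floor, and 0 of their 48, 199, 212, 306 and 363 Spindlin1 peaks were wide, where the share in the whole list is 0.176%. Their median widths were 196.5 to 212.5 bp. In the C11orf84 list these bins had backgrounds of 1.72, 1.53, 1.64, 1.64 and 1.23 times the floor and held 2 wide peaks among 293 at 130 to 135 Mb and 1 among 346 at 135 to 140 Mb, where the share in the whole list is 0.311%. These counts are too small to set apart from the whole lists. On the short arm, the bin at 25 to 30 Mb stood at a median of 2.55 times the floor, with a median summit depth of 18 fragments and a median width of 221 bp, and held 645 Spindlin1 peaks, 2 of them wide. For C11orf84 the values there were 2.52 times, 20 fragments, 640 peaks, 2 wide ones and 236 bp. The wide peaks of that bin are too few to read a difference from the whole lists.

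**Figure D2:**
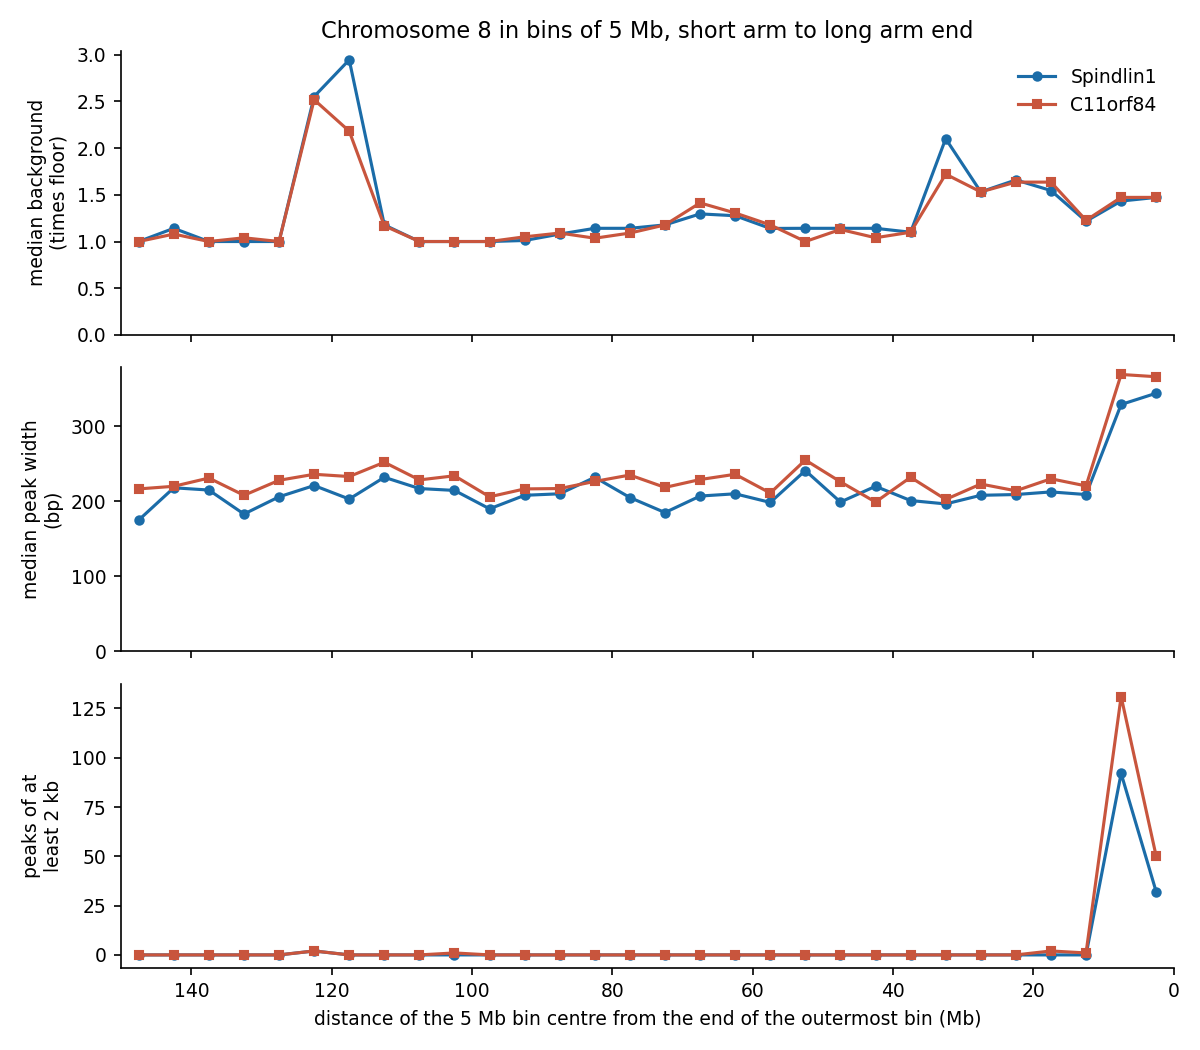
Chromosome 8 in bins of 5 Mb from the short arm (left) to the long arm end (right), by distance of the bin centre from the end of the outermost bin in Mb, with the median background as a multiple of the floor (top), the median peak width in bp (middle) and the number of peaks of at least 2 kb (bottom) for Spindlin1 and C11orf84. Background reaches 2.94 times the floor on the short arm (Spindlin1, 30 to 35 Mb) and stands at 1.22 to 2.10 times in the 5 Spindlin1 bins before the arm end, and the outermost 2 bins hold 92 and 32 wide Spindlin1 peaks.

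Wide peaks of either list that lay at most 10 kb apart were joined into 59 loci, which together spanned 1009 kb (16.02% of the stretch) and had a median length of 7.28 kb. At 37 loci both proteins had a wide peak, at 17 C11orf84 alone and at 5 Spindlin1 alone, and 20 loci consisted of 1 wide peak. The 5 loci with most bases in wide peaks held 36 of the wide Spindlin1 peaks (29.0%) and 50 of the wide C11orf84 peaks (27.6%).

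The leading locus lay at 143523541 to 143633406 and was 110 kb long. It held 12 wide peaks among 73 Spindlin1 peaks and 16 among 60 C11orf84 peaks, and 76.8% and 80.1% of its bases were in peaks. Its widest intervals were a Spindlin1 peak of 4979 bp at 143570470 to 143575448 (27 fragments, fold 14.4, at the floor) and a C11orf84 peak of 6989 bp at 143568451 to 143575439 (28 fragments, fold 14.2, at the floor). Wide intervals often followed each other closely there. The C11orf84 intervals at 143536550 to 143540167, 143540348 to 143544434 and 143544499 to 143547653 were 3618, 4087 and 3155 bp wide, with 29, 30 and 26 fragments at their summits.

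**Figure D3:**
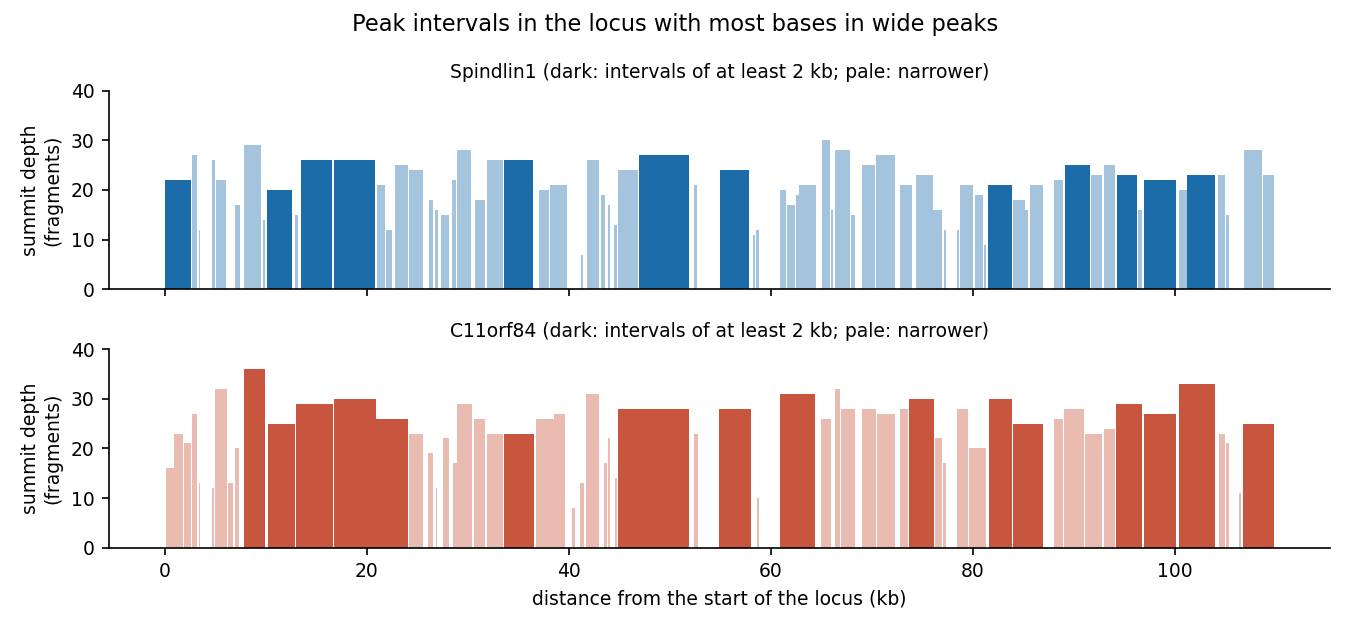
Peak intervals of Spindlin1 (top) and C11orf84 (bottom) in the locus with most bases in wide peaks, by distance from its start in kb, with the height of each bar giving summit depth in fragments and dark bars marking intervals of at least 2 kb. Both proteins cover most of the 110 kb, 76.8% and 80.1% of it, with 12 and 16 wide intervals.

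The second locus (145721065 to 145774490, 53.4 kb) held 8 wide Spindlin1 and 11 wide C11orf84 peaks on a background whose median was 2.12 and 1.83 times the floor. The third (144585870 to 144621371, 35.5 kb) held 7 and 7 at 1.11 and 1.08 times the floor, and 87.1% and 90.8% of its bases were in peaks. The fourth (145637582 to 145686050, 48.5 kb) held 4 and 8, and the fifth (144869464 to 144907833, 38.4 kb) 5 and 8. The leading loci thus included some on a background close to the floor and some on a background well above it.

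Across the arm end, 31 of the 124 wide Spindlin1 peaks stood at the floor and 31 where the background was 2 times the floor or more, and of the 181 wide C11orf84 peaks these were 38 and 35. Wide peaks had a median summit depth of 23 fragments for Spindlin1 (range 17 to 32) and 25 for C11orf84 (18 to 37), with median folds of 10.2 and 10.8. Their summits had no fixed place. The summit lay in the middle 20% of the interval in 24.2% of wide Spindlin1 and 17.7% of wide C11orf84 peaks, and in 53.4% and 57.2% of the peaks under 400 bp. The fragment length was taken as 172 and 180 bp, so width by itself limits where the summit of a narrow peak can lie. That part was not measured here.

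The widest Spindlin1 peak of the arm end spanned 7225 bp (145615352 to 145622576, 25 fragments, fold 12.5, background 1.14 times the floor). Over it lay 3 C11orf84 peaks, the widest of 3459 bp, which together covered 96.1% of it. The second, of 7196 bp (144553484 to 144560679, 23 fragments, at the floor), met a C11orf84 peak of 7761 bp at 144552594 to 144560354 with 28 fragments. The third, of 6327 bp (145108904 to 145115230, 24 fragments, 2.28 times the floor), met a C11orf84 peak of 6305 bp whose ends differed from its own by less than 20 bp. The 10 widest Spindlin1 peaks measured 4929 to 7225 bp and were covered by C11orf84 peaks over 96.1% to 100% of their length. In 8 of these 10 the nearest C11orf84 summit in an overlapping peak was more than 1 kb away, a distance that only wide intervals allow. This held for 38 of all 124 wide Spindlin1 peaks, for 32 of the 181 wide C11orf84 peaks and for 4 of the 10 widest C11orf84 peaks.

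The widest C11orf84 peak spanned 9843 bp (144594564 to 144604406, 29 fragments, fold 6.83) on a background of 3.27 times the floor, and 6 Spindlin1 peaks lay over 95.4% of it. The second, of 9064 bp (145161668 to 145170731, 27 fragments, 1.64 times the floor), held 4 Spindlin1 peaks. The third, of 8891 bp (143354012 to 143362902, 29 fragments, fold 14.7), stood at the floor and held 3 Spindlin1 peaks, of which the widest measured 6007 bp and had 24 fragments. The 10 widest C11orf84 peaks measured 6133 to 9843 bp, and 93.7% to 100% of their length was in Spindlin1 peaks.

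The peaks of highest fold were only in part wide. For Spindlin1 a fold of 15.4 at 29 fragments was reached at 144958424 to 144962505 (4082 bp) and at 145813261 to 145816768 (3508 bp), both at the floor. Next came 142544945 to 142546727 (1783 bp, fold 15.1, 31 fragments), and then 140664659 to 140664906, an interval of only 248 bp with a fold of 14.9 at 28 fragments, where C11orf84 had a peak of 771 bp with a fold of 11.3 at 23 fragments. For C11orf84 the highest fold was 17.7 at 35 fragments (145094067 to 145095772, 1706 bp), where the deeper of 2 Spindlin1 peaks had 19 fragments and a fold of 9.60. The second, 16.01 at 38 fragments, was an interval of 258 bp at 142670054 to 142670311, over which Spindlin1 had 14 fragments and a fold of 6.46. Of the C11orf84 peaks of highest fold, that at 145777646 to 145778025 was 380 bp wide (fold 15.7 at 31 fragments, against 24 fragments for Spindlin1). The deepest summit of the arm end in both lists, named after its values were seen, was at 144940397 to 144940874, with 48 fragments for Spindlin1 and 44 for C11orf84 in intervals of 478 and 447 bp, on a background of 3.99 and 3.82 times the floor.

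Most peaks of each protein overlapped a peak of the other by at least 1 bp. This held for 3014 Spindlin1 peaks (90.02%, 89.0 to 91.0), against 69.7% in the whole list, and for 2665 C11orf84 peaks (85.2%, 83.9 to 86.5), against 57.6%. Other long arm ends of the same length were closer to these shares than the whole lists. On chromosomes 9, 17 and 20 the Spindlin1 shares were 84.2%, 87.0% and 85.2%. The C11orf84 shares there were 71.1%, 77.3% and 71.9%. Dense and wide intervals overlap often by position alone, and that part was not measured here. Overlap rose with width. It was found for 80.7% (78.6 to 82.6) of Spindlin1 peaks under 300 bp, for 95.95% (94.5 to 97.1) of those of 300 to under 600 bp, and for each of the 434 of 600 to under 1000 bp and all wider ones. For C11orf84 the shares were 68.9% (66.3 to 71.4), 93.4% (91.6 to 95.01) and, at 600 to under 1000 bp, 99.4%, and every C11orf84 peak of 1 kb or more overlapped a Spindlin1 peak.

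C11orf84 intervals more often bridged several Spindlin1 peaks than the reverse. There were 446 C11orf84 peaks (14.3%) over 2 or more Spindlin1 peaks, 1024 of them in all, and 210 Spindlin1 peaks (6.27%) over 2 or more C11orf84 peaks, 439 in all. Among the wide ones this held for 125 of 181 C11orf84 peaks and for 44 of 124 Spindlin1 peaks. Of the wide Spindlin1 peaks 105 met a C11orf84 peak that was itself wide, and of the wide C11orf84 peaks 102 met a wide Spindlin1 peak. In the other wide ones the partner was narrower, and it stayed under 1 kb at 3 Spindlin1 and 5 C11orf84 peaks. The unit of background that is taken as an Input read below came to 0.541 fragments for Spindlin1 and 0.566 for C11orf84, and the part of library depth in the difference was not tested.

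At 1783 places a Spindlin1 and a C11orf84 summit lay at most 100 bp apart. The C11orf84 depth there had a median of 1.11 times the Spindlin1 depth (interquartile range 0.941 to 1.30), and over the 66006 such pairs elsewhere the median was 1.08 times (0.90 to 1.27). The ratio hardly varied along the arm end, with medians between 1.06 and 1.13 in each Mb. C11orf84 intervals were the wider ones in 67.1% of the pairs here and in 64.0% elsewhere. The lists differ in scale as well, with the C11orf84 floor at 1.04 fragments and the Spindlin1 floor at 0.949. The shortest C11orf84 peak spans 180 bp, against 172 bp in the Spindlin1 list. How much of the depth ratio and of the width share comes from these differences in scale was not tested. Across the pairs the depths were correlated (Pearson 0.56, Spearman 0.54), as a description, since all pairs come from the same 2 libraries. The pair farthest from equal depth towards C11orf84 was the interval at 142670054 to 142670311 (38 against 14 fragments, a ratio of 2.71). The farthest towards Spindlin1 was at 143528211 to 143528510, with 26 fragments against 12 for C11orf84 (a ratio of 0.462) on a background of 2.28 and 2.18 times the floor.

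**Figure D4:**
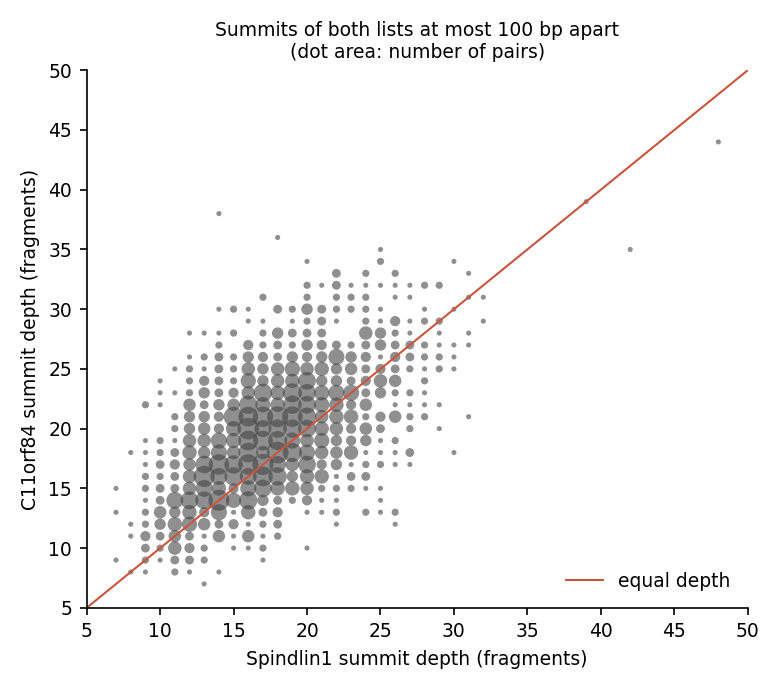
Summit depth of C11orf84 against that of Spindlin1, both in fragments, at the 1783 places of the chromosome 8 long arm end where the 2 summits lie at most 100 bp apart, with dot area giving the number of pairs and the line marking equal depth. The pairs scatter around a line slightly above equal depth (median ratio 1.11), and the pair with 38 C11orf84 against 14 Spindlin1 fragments lies farthest above it.

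Peaks without overlap were small. The 334 Spindlin1 peaks without a C11orf84 peak had a median width of 195 bp and a median of 12 fragments, against 366 bp and 18 fragments for the overlapping ones, and 0 of them reached 1 kb. The 462 C11orf84 peaks without a Spindlin1 peak had medians of 203.5 bp and 13 fragments, against 435 bp and 20. Most lay close to the other protein. A peak of the other list lay within 1 kb of 69.5% of these Spindlin1 peaks and 76.4% of these C11orf84 peaks, and only 19 and 17 were farther than 5 kb from one. The highest fold among them was 10.04 for Spindlin1 (140926951 to 140927167, 217 bp, 21 fragments), whose nearest C11orf84 peak was 56 bp away, and 11.5 for C11orf84 (143114518 to 143114821, 304 bp, 26 fragments), 507 bp from the nearest Spindlin1 peak. A stretch without a peak is one without a call in this library, which is not the same as one without the protein.

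The background can be traced to a small number of Input reads. It stood at the floor in 14.8% of the Spindlin1 and 14.7% of the C11orf84 peaks here, against 48.2% and 49.3% in the whole lists. In a further 23.6% and 23.8% it was set by a window of 10 kb, and it then corresponded to a median of 131 and 132 Input reads (range 102 to 289 in both lists), where the floor equals 101.9 reads. That a unit of background is an Input read is an inference, since the control of the peak calling is not given. At the 316 paired summits where both lists used the 10 kb window, the read numbers recovered from the 2 lists differed by at most 2 in 97.2%. Summits so close share nearly all of that window, so this cannot show whether the control was the Input. Over the 6358 such pairs elsewhere the share was 97.2% as well.

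Set beside the outermost 6.30 Mb of the long arms of chromosomes 9, 17 and 20, this arm end was not the one with most peaks. It held 531 Spindlin1 and 496 C11orf84 peaks per Mb, against 509 and 557 on chromosome 9, 602 and 623 on chromosome 17, and 345 and 364 on chromosome 20. The share of bases in peaks was the highest of the 4 ends, at 29.97% and 32.5%, against 20.8% and 26.1%, 22.7% and 27.3%, and 14.96% and 17.8%. Wide peaks made up 1.03% and 1.88% of the peaks on chromosome 9, 0.237% and 0.917% on chromosome 17 and 1.15% and 2.05% on chromosome 20. With 1 library per protein these differences have no test.

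Widths were also set side by side at equal summit depth among floor peaks, as a description, since width was among the values behind the choice of the stretch. Among floor peaks of 8 to 11 fragments, the Spindlin1 median width was 189 bp (181 to 203), against 207 bp (206 to 208) over all peaks elsewhere. At 16 to 19 fragments it was 531 bp (447 to 690) against 347 bp (337 to 359), and at 20 to 24 fragments 1008 bp (706 to 1255) against 480.5 bp (440 to 532). For C11orf84 the medians at 8 to 11 fragments were 201 bp (193 to 226) here and 216 bp (215 to 217) elsewhere, and at 16 to 19 fragments 471.5 bp (391 to 625) and 395 bp (387 to 403). At 20 to 24 fragments the C11orf84 median was 840.5 bp (674 to 1091) against 544 bp (501 to 569). The other arm ends lay on both sides. At 16 to 19 fragments the Spindlin1 medians were 454.5 bp on chromosome 9, 448 bp on chromosome 17 and 549.5 bp on chromosome 20, and the C11orf84 medians 488.5, 522 and 575 bp, all of the latter above that of chromosome 8. At 20 to 24 fragments the Spindlin1 medians were 876 bp (467 to 1314) on chromosome 9, 446.5 bp (301 to 589) on chromosome 17 and 777 bp (438 to 1347) on chromosome 20. For C11orf84 they were 756.5 bp (581 to 837) on chromosome 9, 549.5 bp (418 to 674) on chromosome 17 and 857 bp (563 to 1238) on chromosome 20.

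**Figure D5:**
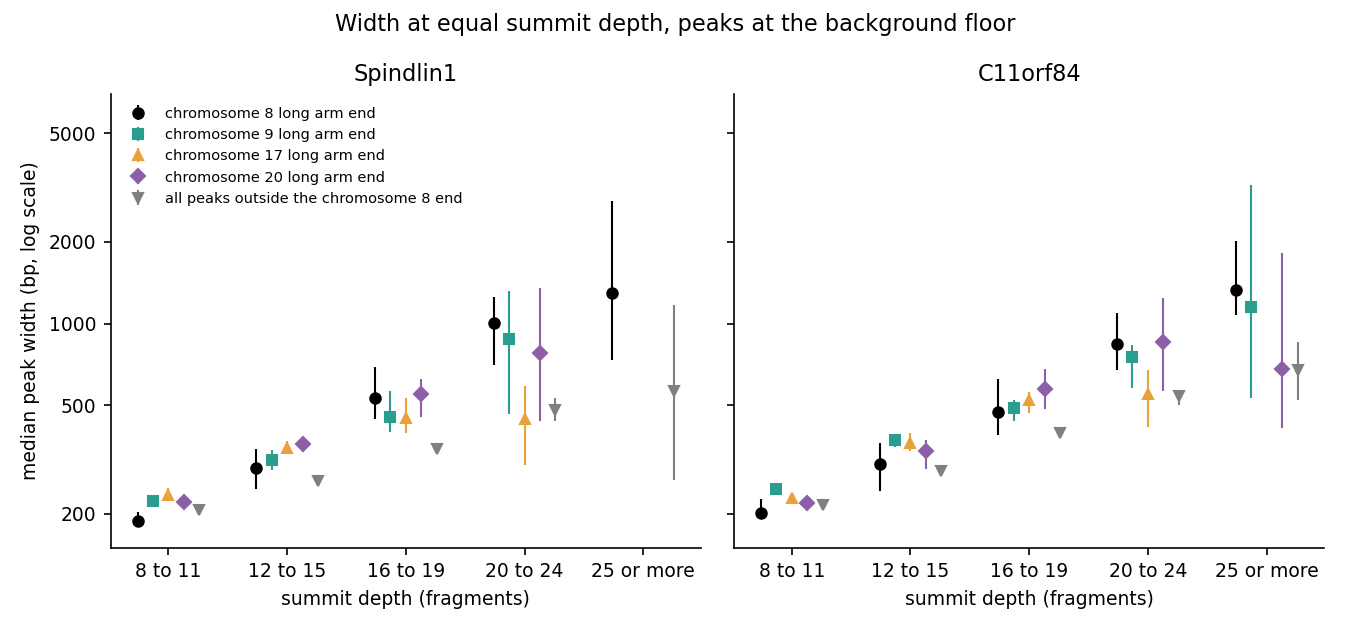
Median peak width in bp (log scale) by summit depth in fragments for peaks at the background floor, in the chromosome 8 long arm end, in the long arm ends of chromosomes 9, 17 and 20 and in all peaks outside the chromosome 8 end, with exact 95% intervals of the median as bars and groups under 5 peaks left out. At 16 to 19 fragments the Spindlin1 median is 531 bp on chromosome 8 and 347 bp in all other peaks, while the C11orf84 medians of the other 3 arm ends (488.5 to 575 bp) lie above the 471.5 bp of chromosome 8.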

How the data were processed

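The data are 1 deposited peak list for Spindlin1 and 1 for C11orf84 in hg19. Reads were aligned with Bowtie 1.2.2, per the submitters' processing notes. Which program called the peaks, at which threshold and against which control is not given in the sources used here. The authors' lists give a fold enrichment (ratio of the summit to a local background) and, per peak, the −log10 of a p-value and that of a q-value. The deposited score equals −log10 q times 10 without decimals (100% of peaks) and was left aside. The members, limits and lists were chosen with earlier results of these data known.

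Summit depth k and background λ were recovered by solving both deposited values together, the fold as (k + 1)/(λ + 1) and p as the Poisson chance of exceeding k. The largest error in −log10 p was 0.000174. For 16 Spindlin1 peaks and 0 C11orf84 peaks another whole number came nearly as close. The recovery was tested on simulated data. Spindlin1 peaks at the floor had 0.949 fragments of background and C11orf84 peaks 1.04, both taken within 0.1%. Backgrounds above it were matched in turn to whole Input reads in windows of a fragment length (172 and 180 bp, the shortest peaks), 1 kb and 10 kb. Total read numbers are not known, and counting intervals cover counting error only.

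Shares carry exact Clopper-Pearson 95% intervals, and medians carry exact binomial ones. Regions were named by rule, in each list the 10 widest peaks, the 5 of highest fold, the 3 of highest fold without overlap, the 5 loci with most bases in wide peaks and the 3 fullest and emptiest windows of 100 kb, and the text gives the leading ones. The runs, gaps, summit pairs and 5 Mb bins were added after the data were seen. Alternatives were other definitions of overlap, width and joining distance, a −log10 q of at least 10, and an inner limit 2 Mb farther out. Chromosome Y was left out. Coordinates count from 1. Scripts ran in Python 3.11.15 with pandas 2.3.3, SciPy 1.17.1 and NumPy 2.4.6, and plots were drawn with matplotlib 3.10.9.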

Additional observations from a re-analysis of the deposited data

How the results depend on the processing

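No paired analysis was possible because each antibody has 1 library and the results come from no test. Values that moved beyond their counting interval, or counts by over 1.5 times, follow. With at least 50% of both intervals covered, 64.1% of Spindlin1 and 68.7% of C11orf84 peaks were shared, and with summits at most 200 bp apart 60.6% and 64.8%. A −log10 q of at least 10 gave 98.4% and 96.2% shared, 21.5% and 26.4% of bases in peaks, and median widths of 518 and 572 bp. An inner limit 2 Mb farther out gave 87.2% of C11orf84 peaks shared, 38.7% and 41.7% of bases in peaks, and median widths of 366 and 416 bp. Peaks of at least 1 kb numbered 462 and 513, those of at least 3 kb 46 and 79, and those of at least 2 kb at the lowest background 31 and 38. Wide peaks joined up to 20 kb gave 34 loci. The other 4 of 26 alternatives stayed within these bounds. Among them, wide peaks joined up to 5 kb gave 83 loci, against 59 at 10 kb. Median depths of 17 and 19 fragments per summit limit the precision of single folds.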
